A study of Mus musculus with 6 samples.

Results

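Metals enter and leave intestinal cells through small families of transporters, and the genes of zinc and copper handling are compared here between intestines of Apc min/+ mice that lack Sirt7 and Apc min/+ mice that keep it. The set holds every row of the deposited table whose symbol begins with Slc30a or Slc39a and a digit, together with Slc31a1, Slc31a2, Atp7a, Atp7b, Atox1, Ccs, Mt1, Mt2, Mt3, Mt4 and Mtf1. It came to 33 of the 20312 rows: 4 metallothioneins, their regulator Mtf1, 13 zinc importers, a pseudogene of one of them, 8 zinc exporters, and 6 genes of copper handling. A filter on low values left 32 of the 33 for testing, and Mt4 was the member that did not reach it.

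The tested libraries came from mice with the genotype APC min/+ ; Sirt7 -/- (called Sirt7KO, 3 libraries) and the others from mice with the genotype Apc min/+ (3 libraries), all aged 5 months and of a strain given as 129. Apc min/+ is a germline truncating allele of the Wnt pathway inhibitor Apc, so both groups are prone to intestinal adenomas, and Sirt7 is a nuclear protein deacylase. The labels do not say which stretch of intestine was taken, whether it contained tumour, what allele removes Sirt7, or whether the libraries of a group came from separate animals, so the p-values measure only the spread between these libraries, which may be technical. Values are normalised reads, meaning read counts divided by a size factor for each library, and library depth was 24987313 to 27661396 recovered reads in Sirt7KO and 28123962 to 29603348 in Apc min/+.

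Sirt7 itself stood at 240.4, 224 and 219 normalised reads in the Sirt7KO libraries, against 2157, 2118 and 2244 in the Apc min/+ libraries. Markers of absorptive enterocytes were present in all 6 libraries, with a summed level of 938550 to 966014 in Sirt7KO and 1889732 to 1915214 in Apc min/+. Of these markers 14 of 15 were lower in Sirt7KO, where 30.9% of all tested genes were lower. Markers of other cell types also moved between the groups. The summed level of 13 pancreatic acinar markers was 3796 to 4681 in Sirt7KO and 279 to 311 in Apc min/+, that of 9 gastric markers 22022 to 23538 in Sirt7KO and 31.2 to 39.2 in Apc min/+ (1 of them without a read there), and that of 5 B lymphocyte markers 427 to 618 in Sirt7KO and 4617 to 5238 in Apc min/+. The summed level of 8 crypt stem and proliferation markers was 19626 to 21305 in Sirt7KO and 7916 to 8300 in Apc min/+. The part of these differences in the results below was not tested, and in whole tissue fewer cells of a type and less RNA per cell cannot be told apart.

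As background, zinc and copper are cofactors that cells need and that are harmful when free. Proteins of the Slc39a family (ZIP) move zinc into the cytosol from outside or from organelles, and proteins of the Slc30a family (ZnT) move it out of the cytosol or into vesicles. Metallothioneins are small cysteine-rich proteins that hold zinc and copper in the cytosol, and the zinc-sensing factor MTF1 switches on Mt1, Mt2 and Slc30a1 when zinc is plentiful. Copper enters through SLC31A1 (CTR1), is carried by chaperones, and leaves enterocytes for the blood through ATP7A.

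Of the 32 tested members, 11 were higher and 12 lower in Sirt7KO (limma with Benjamini-Hochberg adjustment over all genes tested, adjusted p under 0.05), where 31.6% of all 16600 tested genes were higher and 30.9% lower. In either direction that is 71.9% of the members, against 62.5% of all tested genes. The groups did not overlap for 21 of the 32 members, and for 66.5% of all tested genes. Changes were modest. The median absolute log2 fold change was 0.30 among the members and 0.39 among all tested genes, and 3 members changed over 2-fold, where 17.1% of all tested genes did. Mt3, counted among these 3 and among the 11 higher, would not have met the filter by its Apc min/+ libraries alone. The median signed change of the members was -0.00016 and that of all tested genes 0.01. The zinc exporters had 5 members lower and 3 not passing, and 0 were higher in limma, also at an unadjusted p under 0.05. In edgeR and DESeq2 0 were higher at an adjusted p under 0.05, and 1 in edgeR and 0 in DESeq2 at an unadjusted one. Slc30a7 was called higher in limma with TMM scaling, under quantile normalization and without Sirt7KO replicate 3. Among the zinc importers there were 6 higher, 4 lower and 3 not passing.

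**Figure D1:**
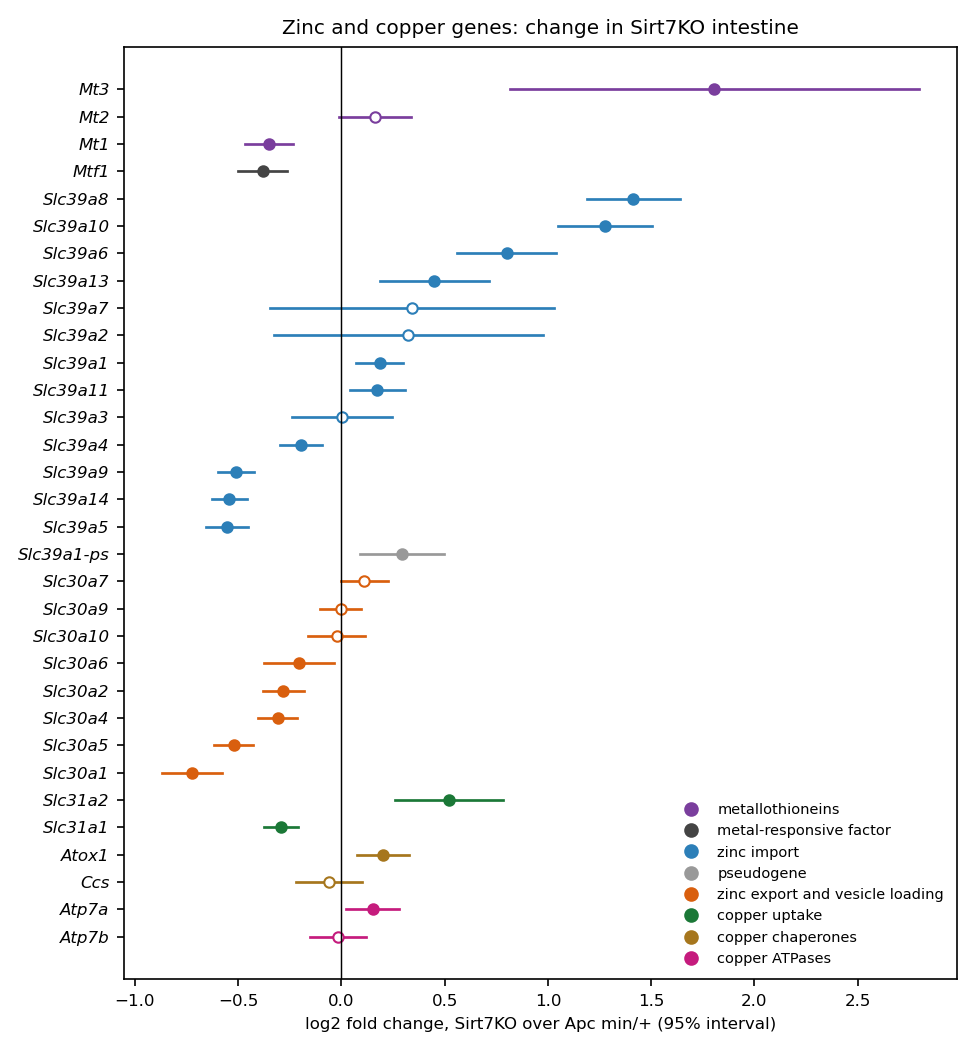
Log2 fold change (Sirt7KO over Apc min/+, horizontal axis) of the 32 tested members, grouped by role, with 95% intervals from limma. Filled points passed at an adjusted p under 0.05 and open points did not. Mt3, Slc39a8 and Slc39a10 lie past 1, Slc30a1 is lowest at -0.72, and Mt3 is highest and has the widest interval.

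The metallothioneins did not move as one. Mt1, one of the broadly expressed pair that MTF1 controls, stood at 1582, 1546 and 1629 normalised reads in Sirt7KO and at 2178, 1957 and 1939 in Apc min/+. All 3 Sirt7KO libraries lay below all 3 Apc min/+ libraries, and Mt1 fell (log2 fold change -0.35 ± 0.06 SE, limma adjusted p = 8.78e-06). Mt2, its partner, stood at 745, 793 and 809 in Sirt7KO and at 702, 795 and 608 in Apc min/+. The groups overlapped, and Mt2 did not pass (log2 fold change 0.16 with a 95% interval of -0.01 to 0.34, limma adjusted p = 0.0963). Without Apc min/+ replicate 2, which held the highest Mt2 value of its group, Mt2 passed as higher (0.26, limma adjusted p = 0.0143).

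Set against each other within a library, Mt1 and Mt2 give a measure that does not depend on the size factors, although quantile normalization, which is not one factor per library, changes it. The ratio of Mt1 to Mt2 reads was 2.12, 1.95 and 2.01 in Sirt7KO, against 3.10, 2.46 and 3.19 in Apc min/+. Every Sirt7KO ratio was below every Apc min/+ ratio, with means of 2.03 ± 0.0881 in Sirt7KO and 2.92 ± 0.397 in Apc min/+ (SD, n = 3 each; exact permutation test, two-sided, p = 0.1, the smallest value that 3 against 3 libraries allow). The sum of the pair was 2368 ± 61.1 in Sirt7KO and 2726 ± 168 in Apc min/+ (SD, n = 3 each). Exons of the antisense gene model Gm45774, which has no row in the deposited table, cover 73.5% of the exon length of Mt2. Since the strand setting of the counting is not given in the sources used here, reads of Mt2 and Gm45774 cannot be told apart.

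Mt3, known mainly from brain, was near the bottom of the measured range, with 40.5, 26.2 and 29.6 normalised reads in Sirt7KO and 20.6, 6.41 and 4.03 in Apc min/+. The groups did not overlap, and it passed as higher (log2 fold change 1.81 ± 0.48 SE, limma adjusted p = 0.00227), on 102 reads in Sirt7KO and 30 in Apc min/+. Mt3 met the filter of 10 normalised reads in 3 libraries through the Sirt7KO group, where it was high. Its Apc min/+ libraries alone would not have met it, so this call is not independent of the filter. The ratio of means was 3.10, with an exact 95% interval for counting error of 2.04 to 4.82. Mt4, typical of stratified squamous epithelium, had 9.005, 8.07 and 9.54 normalised reads in Sirt7KO and no read in any Apc min/+ library. Set against a floor of 3 reads over the Apc min/+ group, it was at least 8.57-fold higher in Sirt7KO.

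The coding sequences of the 4 genes show how alike the metallothioneins are and where their reads can be separated. They are given from the first to the stop codon, as spliced from the first listed GENCODE M21 transcript of each gene (GRCm38), with the codons for cysteine, the residue that binds the metal, in capitals.
Mt1: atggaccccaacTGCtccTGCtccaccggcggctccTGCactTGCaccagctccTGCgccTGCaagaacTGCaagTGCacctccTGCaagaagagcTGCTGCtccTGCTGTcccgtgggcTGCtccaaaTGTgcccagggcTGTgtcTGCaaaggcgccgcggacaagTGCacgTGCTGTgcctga
Mt2: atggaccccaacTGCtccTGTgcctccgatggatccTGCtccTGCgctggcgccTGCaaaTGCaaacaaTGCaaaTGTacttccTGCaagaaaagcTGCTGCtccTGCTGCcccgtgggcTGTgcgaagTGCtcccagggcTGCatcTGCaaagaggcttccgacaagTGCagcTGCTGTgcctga
Mt3: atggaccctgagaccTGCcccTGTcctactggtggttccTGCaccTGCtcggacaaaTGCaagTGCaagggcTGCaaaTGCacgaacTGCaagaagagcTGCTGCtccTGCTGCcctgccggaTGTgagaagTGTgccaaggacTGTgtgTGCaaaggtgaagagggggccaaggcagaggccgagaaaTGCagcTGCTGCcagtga
Mt4: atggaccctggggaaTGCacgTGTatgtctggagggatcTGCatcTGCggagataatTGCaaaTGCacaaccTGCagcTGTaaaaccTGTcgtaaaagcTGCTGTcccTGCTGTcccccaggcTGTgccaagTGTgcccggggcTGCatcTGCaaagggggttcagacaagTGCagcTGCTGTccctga
Each has 20 cysteine codons, out of 61 codons before the stop in Mt1 and Mt2, 68 in Mt3 and 62 in Mt4. Mt1 and Mt2 match at 148 of 186 bases (79.6%). The longest stretch shared without a mismatch by their transcripts is 20 bases, and for Mt1 and Mt3 it is 27 bases. The 4 genes lie in a row on the plus strand of chromosome 8, in the order Mt4, Mt3, Mt2 and Mt1, and Mt2 (chr8:94172664-94173568) ends 5.51 kb before Mt1 (chr8:94179082-94180327) starts.

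Mtf1, which encodes the zinc sensor that drives Mt1, Mt2 and Slc30a1, had 1344, 1225 and 1258 normalised reads in Sirt7KO, against 1598, 1748 and 1642 in Apc min/+. No Sirt7KO library reached the lowest Apc min/+ library, and Mtf1 fell (log2 fold change -0.38 ± 0.06 SE, limma adjusted p = 4.76e-06). It lies at chr4:124802104-124849800. Antisense exons of other gene models cover 8.09% of the exon length of Mtf1 and 8.92% of that of Slc30a1. Slc30a1 (ZnT1, chr1:191906767-191913247), the exporter of the plasma membrane and a textbook target of MTF1, had 831, 733 and 725 in Sirt7KO and 1346, 1201 and 1234 in Apc min/+. The groups stood well apart, and Slc30a1 fell to a lower log2 fold change than any other tested member (log2 fold change -0.72 ± 0.07 SE, limma adjusted p = 4.37e-09). In mouse cells MTF1 also holds down the importer gene Slc39a10, which is described below.

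MTF1 binds the metal response element, whose core was searched here as TGCACNC or TGCGCNC on both strands, in RefSeq windows of GRCm38.p6 that run from 250 bases before to 50 bases after each annotated start. Such a core was present in 18 of 32 windows of 28 members (56.2%) and in 25.7% of all 32851 windows. Windows of Ccs, Slc39a1-ps, Slc39a14, Slc39a4 and Slc39a6 were not used here. Mt2 had 4 cores, Mt1 had 3 and Slc30a1 had 2, where 7.11% of all windows had 2 or more and 1.97% had 3 or more. Slc30a10 and Slc30a4 also had 3, with 2 overlapping each other in Slc30a10, and Mtf1, Slc31a1 and both windows of Slc39a10 had 0. The bases before the RefSeq start of Mt1 and Mt2, and the last 120 bases before that of Slc30a1, are shown since these are the genes best known for this element. All are written on the plus strand, 5′ to 3′, with the cores in capitals.
Mt1, chr8:94178839-94179088: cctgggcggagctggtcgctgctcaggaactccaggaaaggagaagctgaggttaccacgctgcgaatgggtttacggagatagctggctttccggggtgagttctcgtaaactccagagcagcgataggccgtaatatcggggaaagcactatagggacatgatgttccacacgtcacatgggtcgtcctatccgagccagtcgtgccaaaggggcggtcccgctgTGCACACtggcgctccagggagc
Mt2, chr8:94172368-94172617: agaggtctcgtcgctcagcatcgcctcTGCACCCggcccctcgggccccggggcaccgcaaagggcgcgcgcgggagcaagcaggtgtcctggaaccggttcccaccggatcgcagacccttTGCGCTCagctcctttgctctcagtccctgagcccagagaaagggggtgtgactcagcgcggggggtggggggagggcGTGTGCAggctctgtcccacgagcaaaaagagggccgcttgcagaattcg
Slc30a1, chr1:191906661-191906780: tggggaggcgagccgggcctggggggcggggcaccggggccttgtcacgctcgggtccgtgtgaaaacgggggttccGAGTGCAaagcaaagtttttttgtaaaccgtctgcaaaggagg
In Mt1 the core TGCACAC lies 23 bases before the start, and 2 more follow just after it, TGCACTC and TGCGCTC. In Mt2 the cores TGCACCC and TGCGCTC lie 223 and 128 bases before the start, and GTGTGCA, a core on the other strand, 50 bases before it, and another of these, GTGCGCA, follows the start. In Slc30a1 the core on the other strand, GAGTGCA, lies 43 bases before the start, and GAGCGCA follows the start. GENCODE gives Mt1 other transcripts that begin 122 and 152 bases downstream of the RefSeq start, whose own upstream bases lie partly outside this window. Its Mt2 transcripts begin 46 and 242 bases downstream of the RefSeq start, so the distances above depend on the start used. A match to these letters is not evidence of binding, and the counts were not read against the direction of change.

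The zinc importers went both ways. Compared per kilobase of exon, since reads also depend on the length of a gene, Slc39a5 and Slc39a4 led the family in both groups. The length takes in the exons of all annotated transcripts of a gene, so the shares depend on the annotation. Slc39a5 supplied 27.1% ± 1.00 of the summed importer reads per kilobase in Sirt7KO and 33.4% ± 0.920 in Apc min/+, and Slc39a4 supplied 23.7% ± 0.245 in Sirt7KO and 22.8% ± 0.762 in Apc min/+ (SD, n = 3 each). In Sirt7KO the next in order were Slc39a1 (15.2% ± 1.06), Slc39a14 (11.3% ± 0.360), Slc39a11 (7.85% ± 0.341) and Slc39a9 (7.63% ± 0.0964). In Apc min/+ they were Slc39a14 (13.8% ± 0.557), Slc39a1 (11.2% ± 0.149), Slc39a9 (9.14% ± 0.487) and Slc39a11 (5.84% ± 0.219). Slc39a11 and Slc39a9 overlapped within Sirt7KO, so their order there is not set. The summed level was 5838 ± 143 reads per kilobase in Sirt7KO and 6961 ± 311 in Apc min/+ (SD, n = 3 each).

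**Figure D2:**
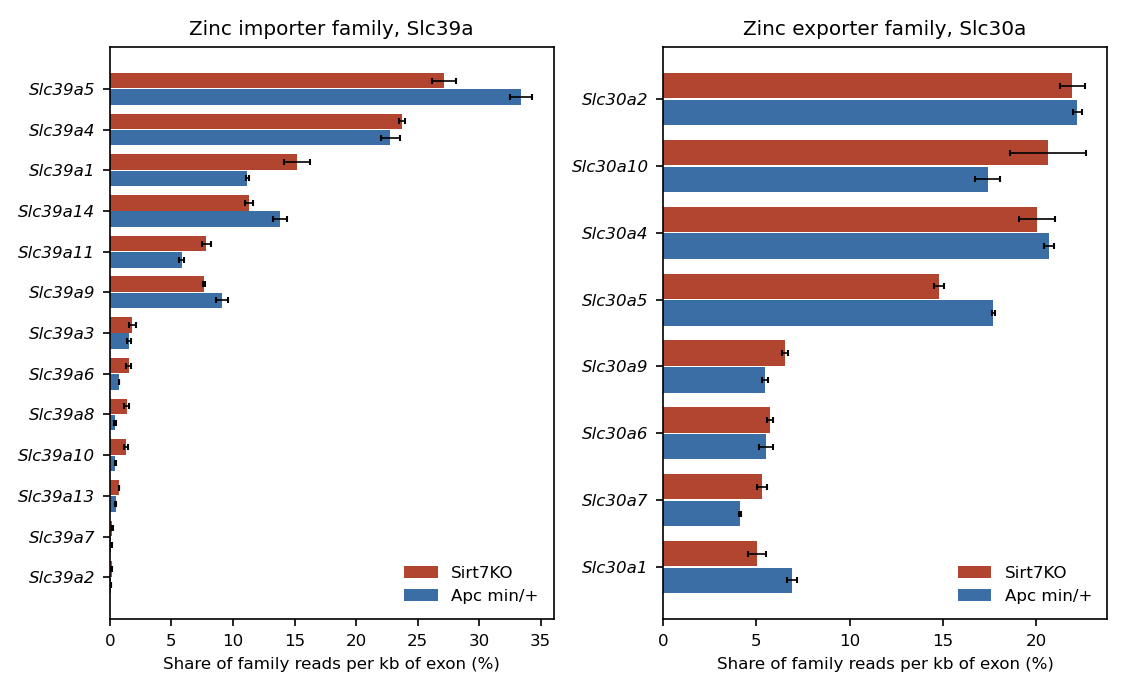
Share of each gene in the summed normalised reads per kilobase of exon (horizontal axis, %) for the zinc importers (left) and zinc exporters (right). Bars are means over 3 libraries of Sirt7KO (red, upper) and Apc min/+ (blue, lower), with SD. Slc39a5 leads the importers in both groups, and Slc30a2, Slc30a4, Slc30a5 and Slc30a10 lead the exporters.

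The 4 importers that were lower included Slc39a4 of the absorptive surface and Slc39a5 of the basolateral side. Slc39a4 (ZIP4, chr15:76612383-76617384), the apical importer of dietary zinc that is mutated in human acrodermatitis enteropathica, had 4173, 4285 and 4452 normalised reads in Sirt7KO and 4538, 5122 and 5125 in Apc min/+. The highest Sirt7KO library lay just under the lowest Apc min/+ library, and Slc39a4 fell (log2 fold change -0.19 ± 0.05 SE, limma adjusted p = 0.00149). Under quantile normalization its change was -0.01 and no longer passed (limma adjusted p = 0.853). Slc39a5, which sits on the basolateral membrane of enterocytes in mouse, averaged 3526 ± 162 in Sirt7KO and 5174 ± 320.4 in Apc min/+ normalised reads (SD, n = 3 each), a fall of larger size (log2 fold change -0.55 ± 0.05 SE, limma adjusted p = 1.38e-09). Slc39a14, which takes up zinc, manganese and iron, had the highest mean reads of the members in each group and averaged 6967 ± 361 in Sirt7KO and 10142 ± 65.9 in Apc min/+ (log2 fold change -0.54 ± 0.04 SE, limma adjusted p = 8.78e-11). Slc39a9, an importer of the Golgi, averaged 4526 ± 158 in Sirt7KO and 6449 ± 165 in Apc min/+ (log2 fold change -0.51 ± 0.04 SE, limma adjusted p = 3.59e-10). Absorptive enterocyte markers were lower in the same libraries, with a median log2 fold change of -0.93 over 15 genes, and the part of this in the 4 falls was not tested.

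The importers with the largest rises were Slc39a8, Slc39a10 and Slc39a6. Slc39a8, which brings in zinc, manganese and cadmium and is the closest relative of Slc39a14, had 692, 522 and 609.5 normalised reads in Sirt7KO, against 248, 218 and 214 in Apc min/+. The lowest Sirt7KO value was over 2-fold the highest Apc min/+ value, and Slc39a8 rose (log2 fold change 1.41 ± 0.11 SE, limma adjusted p = 8.83e-11). Slc39a10, a plasma membrane importer prominent in B lymphocytes, had 504, 475 and 413 in Sirt7KO and 187, 203 and 182 in Apc min/+. These groups were also far apart, and it rose (log2 fold change 1.27 ± 0.11 SE, limma adjusted p = 6.75e-10). In the same libraries the 5 B lymphocyte markers were all lower, where 30.9% of all tested genes were. The part of B lymphocytes in the change of Slc39a10 was not tested. Slc39a6, a near relative of Slc39a10 whose protein pairs with it, had 340.4, 331 and 424 in Sirt7KO and 204, 206 and 213 in Apc min/+. It rose too (log2 fold change 0.80 ± 0.12 SE, limma adjusted p = 2.42e-06), with the third Sirt7KO library highest. Slc39a8, Slc39a10 and Slc39a6 supplied 1.36%, 1.31% and 1.53% of importer reads per kilobase in Sirt7KO and 0.426%, 0.450% and 0.733% in Apc min/+.

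**Figure D3:**
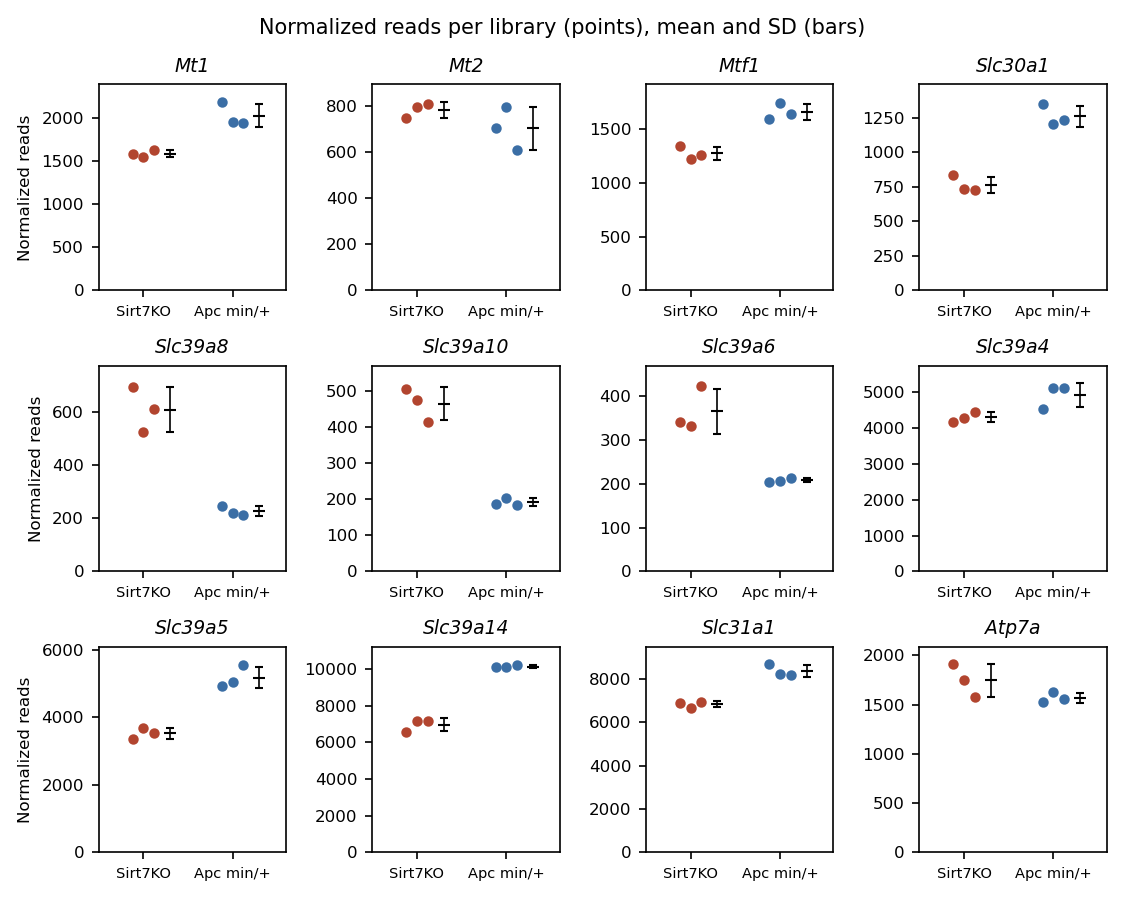
Normalised reads (vertical axes, each from 0) of 12 members in each library, Sirt7KO (red, left) and Apc min/+ (blue, right), with the mean and SD over 3 libraries. Slc39a8, Slc39a10 and Slc39a6 are higher and Mtf1, Slc30a1, Slc39a5 and Slc39a14 lower in all 3 Sirt7KO libraries, while the groups overlap for Mt2 and Atp7a.

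Smaller rises were seen for 3 more importers. Slc39a13, an importer of the Golgi and its vesicles whose loss in humans gives a connective tissue disorder, averaged 215 ± 6.31 in Sirt7KO and 157 ± 1.695 in Apc min/+ normalised reads (log2 fold change 0.45 ± 0.13 SE, limma adjusted p = 0.00388) and did not pass under quantile normalization (0.26, limma adjusted p = 0.0792). Slc39a1, a ubiquitous plasma membrane importer, averaged 2093 ± 118 in Sirt7KO and 1839 ± 68.2 in Apc min/+ (log2 fold change 0.19 ± 0.05 SE, limma adjusted p = 0.00502). Slc39a11 averaged 1540.1 ± 99.3 in Sirt7KO and 1366 ± 112 in Apc min/+, with overlapping groups (log2 fold change 0.17 ± 0.06 SE, limma adjusted p = 0.0239). Its call was lost without Sirt7KO replicate 2 or 3 (limma adjusted p = 0.102 and 0.0988) and without Apc min/+ replicate 1 or 2 (0.142 and 0.0554). The processed pseudogene Slc39a1-ps averaged 434 ± 5.80 in Sirt7KO and 356 ± 43.6 in Apc min/+ (log2 fold change 0.29 ± 0.10 SE, limma adjusted p = 0.0129), and was not called without Apc min/+ replicate 1 (limma adjusted p = 0.0675) or under quantile normalization (0.245). It derives from Slc39a1, so how their reads were divided is uncertain.

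Slc39a3, a plasma membrane importer, averaged 428 ± 60.7 in Sirt7KO and 428 ± 65.2 in Apc min/+ and did not pass (log2 fold change 0.00, 95% interval -0.24 to 0.25). Slc39a2, another plasma membrane importer, averaged 34.6 ± 8.97 in Sirt7KO and 27.3 ± 5.77 in Apc min/+, with an interval of -0.33 to 0.98. Slc39a7, the importer of the endoplasmic reticulum, averaged 31.4 ± 8.91 in Sirt7KO and 24.2 ± 4.98 in Apc min/+, with an interval of -0.34 to 1.03. The read-through gene model Gm20427 covers 80.7% of the exon length of Slc39a7 on the same strand. H2-Ke6, the neighbouring gene that this model also spans, was also low, at 1.80, 4.03 and 2.86 in Sirt7KO and 3.10, 3.21 and 5.04 in Apc min/+. The level of Slc39a7 is therefore uncertain, since how shared reads were counted is not given in the sources used here.

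Among the zinc exporters 4 fell besides Slc30a1, each in libraries whose values did not overlap between groups. Of all tested genes 30.9% were lower, and 66.5% did not overlap. Slc30a5 and Slc30a6 encode the partners of a dimer that loads zinc into the early secretory pathway, where enzymes such as alkaline phosphatase receive it. Slc30a5 averaged 3135 ± 119 in Sirt7KO and 4503 ± 129 in Apc min/+ normalised reads (log2 fold change -0.52 ± 0.05 SE, limma adjusted p = 7.57e-10). Slc30a6 averaged 511 ± 5.73 in Sirt7KO and 591 ± 47.7 in Apc min/+ (log2 fold change -0.21 ± 0.08 SE, limma adjusted p = 0.033). The Slc30a6 call is fragile: without Sirt7KO replicate 1, 2 or 3 the limma adjusted p was 0.0542, 0.0662 and 0.0754, without Apc min/+ replicate 1 or 2 it was 0.105 and 0.131, and with TMM scaling 0.0512. Slc30a4, whose loss gives the lethal milk mouse, averaged 3189.8 ± 103 in Sirt7KO and 3953 ± 144 in Apc min/+ (log2 fold change -0.31 ± 0.05 SE, limma adjusted p = 3.33e-06).

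Slc30a2, which loads the secretory granules of Paneth cells in mouse, averaged 2269.9 ± 35.9 in Sirt7KO and 2758 ± 79.3 in Apc min/+ (log2 fold change -0.28 ± 0.05 SE, limma adjusted p = 1.81e-05). Its fall came in libraries where 7 of 8 tested Paneth markers were higher (31.6% of all tested genes were), with a summed level over the 9 measured of 20594 to 23619 in Sirt7KO and 9737 to 10522 in Apc min/+. Slc30a7, of the Golgi, averaged 1713 ± 70.9 in Sirt7KO and 1586 ± 50.96 in Apc min/+ and did not pass (95% interval of the log2 change -0.002 to 0.22), but passed as higher without Sirt7KO replicate 3 (limma adjusted p = 0.0418), with TMM scaling (0.0437) and under quantile normalization (0.0142). Slc30a9, of mitochondria, averaged 2341 ± 68.0 in Sirt7KO and 2346 ± 49.2 in Apc min/+ (interval -0.10 to 0.10). Slc30a10, which in fact exports manganese, averaged 3501 ± 414 in Sirt7KO and 3540.3 ± 58.2 in Apc min/+ (interval -0.16 to 0.12), and its first Sirt7KO library, at 3028, was below the other 5 libraries. Antisense exons of other gene models cover 16.0% of the exon length of Slc30a7 and 9.13% of that of Slc30a10. With the strand setting of the counting not given, reads of these models may be included. The exporters summed to 2903 ± 59.5 reads per kilobase in Sirt7KO and 3484 ± 83.3 in Apc min/+ (SD, n = 3 each), and Slc30a2 supplied 21.9% ± 0.665 in Sirt7KO and 22.2% ± 0.252 in Apc min/+. In Sirt7KO it overlapped Slc30a10, at 20.6% ± 2.05, so their order there is not set. Slc30a1 supplied 5.02% ± 0.492 in Sirt7KO, against 6.90% ± 0.281 in Apc min/+.

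Among the copper genes, the importers went apart. Slc31a1 (CTR1, chr4:62360727-62391769), the high-affinity copper importer, had 6875, 6663 and 6919 normalised reads in Sirt7KO and 8675, 8214 and 8160.1 in Apc min/+. The groups did not overlap, and Slc31a1 fell (log2 fold change -0.29 ± 0.04 SE, limma adjusted p = 1.13e-06). Under quantile normalization its change was -0.03 and did not pass (limma adjusted p = 0.557). Slc31a2 (CTR2), its low-affinity relative of endosomes and lysosomes, which lies 62.3 kb upstream on the same strand, averaged 337 ± 39.8 in Sirt7KO and 236 ± 40.1 in Apc min/+ and rose (log2 fold change 0.52 ± 0.13 SE, limma adjusted p = 0.00103).

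Inside the cell, Atox1, the chaperone that hands copper to the ATPases, averaged 1490.5 ± 73.0 in Sirt7KO and 1299 ± 81.6 in Apc min/+ and rose (log2 fold change 0.20 ± 0.06 SE, limma adjusted p = 0.00669). Without Apc min/+ replicate 2 the adjusted p of Atox1 was 0.0563. Ccs, the chaperone that loads superoxide dismutase, averaged 887 ± 99.0 in Sirt7KO and 922 ± 55.0 in Apc min/+ and did not pass (95% interval -0.22 to 0.10). Atp7a, the ATPase that passes copper from enterocytes to the blood and is mutated in Menkes disease, had 1914, 1752 and 1577 normalised reads in Sirt7KO and 1523, 1626 and 1560.1 in Apc min/+. The third Sirt7KO library lay among the Apc min/+ libraries, and Atp7a passed only narrowly (log2 fold change 0.15 ± 0.06 SE, limma adjusted p = 0.0413). The call was lost without Sirt7KO replicate 1 or 2 (limma adjusted p = 0.272 and 0.0973), without Apc min/+ replicate 1 or 3 (0.116 and 0.0813) and in DESeq2 (adjusted p = 0.0541). Atp7b, its relative that matters in liver and is mutated in Wilson disease, had 962, 963 and 1083 in Sirt7KO and 1000.4, 992 and 1048 in Apc min/+. The groups overlapped, and it did not pass (log2 fold change -0.02, 95% interval -0.15 to 0.12).

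The members were also grouped by their mean number of reads, which depends on exon length as well as on level and so does not order the genes by level. Of the 8 members with a mean of at least 3000 normalised reads, 7 were lower and 0 higher in limma, at an unadjusted p under 0.05 as well, and 0 at an adjusted p under 0.05 in edgeR and in DESeq2. Slc30a10 was the one that did not pass, and among all 1882 tested genes with as many reads 63.8% were lower and 21.5% higher. Of the 10 members between 100 and 1000, 6 were higher and 1 lower, and among all 6851 tested genes there 41.1% were higher and 24.5% lower. The 11 members between 1000 and 3000 had 4 higher and 4 lower, and among all 3271 tested genes there 29.0% were higher and 42.8% lower. Of the 3 members under 100, Mt3 alone was higher and 0 were lower in limma at any p, edgeR or DESeq2. Among all 4399 tested genes with a mean between 10 and 100, 23.6% were higher and 18.9% lower. These bands were chosen after the values were seen. Per kilobase, Slc39a1, which rose, stood at 885 ± 50.1 in Sirt7KO and Slc39a14, which fell, at 660.3 ± 34.3 (SD, n = 3 each). In Apc min/+ their order was the reverse, with Slc39a1 at 778 ± 28.9 and Slc39a14 at 961 ± 6.25. Whether the changes follow the level per kilobase was not tested.

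**Figure D4:**
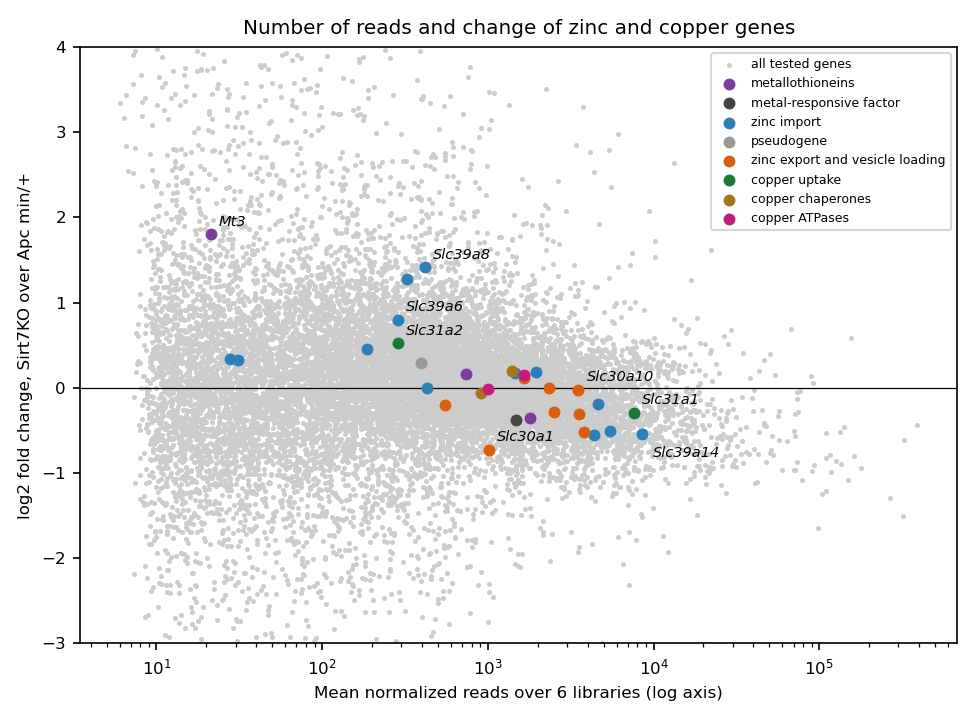
Mean normalised reads over 6 libraries (horizontal, log axis) against log2 fold change (Sirt7KO over Apc min/+, vertical) for the members, coloured by role, and all tested genes (grey, 297 of which lie outside the plotted range of -3 to 4). Members with many reads such as Slc39a14 and Slc31a1 lie below 0, with most other genes of as many reads, and Slc39a8 and Slc39a6 lie above.

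Other genes of copper handling went both ways as well, with 7 of 18 tested higher, 6 lower and 5 not passing (median log2 fold change 0.23), where 31.6% of all tested genes were higher and 30.9% lower. Heph, the copper oxidase that helps iron leave enterocytes, averaged 8501 ± 64.2 in Sirt7KO and 12197 ± 382 in Apc min/+ and fell (log2 fold change -0.52 ± 0.04 SE, limma adjusted p = 3.79e-11). Sod1, the copper-zinc superoxide dismutase that Ccs loads, averaged 2354 ± 125 in Sirt7KO and 3127 ± 71.7 in Apc min/+ and fell (log2 fold change -0.41 ± 0.05 SE, limma adjusted p = 1.65e-07). Lox, a copper-dependent enzyme that crosslinks collagen, averaged 129.8 ± 21.1 in Sirt7KO and 20.1 ± 3.50 in Apc min/+ and rose (log2 fold change 2.64 ± 0.24 SE, limma adjusted p = 2.39e-09), as did the metalloreductase Steap2, which averaged 475 ± 18.4 in Sirt7KO and 233 ± 24.5 in Apc min/+ (log2 fold change 1.03 ± 0.10 SE, limma adjusted p = 1.05e-08). All 4 had groups that did not overlap, but they were named by smallest p, and 66.5% of all tested genes did not overlap either.

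Of 17 other genes that bind, carry or need zinc, 8 were higher, 8 lower and 1 did not pass (median log2 fold change -0.02), where 62.5% of all tested genes passed in either direction. Among those with the smallest p, the zinc peptidases of the brush border Mep1b (log2 fold change -0.89 ± 0.03 SE, limma adjusted p = 3.53e-16) and Ace (log2 fold change -0.87 ± 0.04 SE, limma adjusted p = 5.24e-15) and the cysteine-rich intestinal protein Crip1 (log2 fold change -0.98 ± 0.04 SE, limma adjusted p = 1.45e-14) were lower. Mep1a, the partner of Mep1b, rose instead (log2 fold change 0.58 ± 0.10 SE, limma adjusted p = 0.000726), and is named here after its value was seen. Alpi and Mep1a are also enterocyte markers, and S100a8 and S100a9 are markers of neutrophils.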

How the data were processed

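RNA-seq was done on 6 libraries, 3 of each genotype. Trizol extraction and a TruSeq RNA kit from Illumina are given, per the labels' protocols. The submitters' processing notes name the build mm10 and the tools DESeq2, HTSeq 0.6.1p1, TopHat2 2.1.1, TopHat and FastQC. They assign no roles, and a strand setting is not given in the sources used here. The authors' deposited table (20312 rows) holds a normalised signal for each gene and library, a read count over a size factor. Per the file headers it also holds the authors' mean signal, log2 fold change with its error, Wald score, and p-values before and after adjustment. By the authors' deposited adjusted p-values, 22 of the 33 members were under 0.05, against 49.2% of all rows. The values of each library were multiples of one step (100% within 0.01), so reads could be recovered as whole numbers, although in 2 columns that step lay close to 1. Spreadsheet dates had replaced 23 gene names.

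Genes with at least 10 normalised reads in at least 3 libraries (16600) were tested with limma 3.58.1 in R 4.3.3, using trend and robust estimation on log2(value + 1). Genotype was the one term, and p-values were adjusted by Benjamini-Hochberg over all tested genes. Fold changes are Sirt7KO over Apc min/+ on that scale, where the added 1 shrinks the change of genes with few reads. The limma fit was also run on simulated data with far fewer changed genes than were called here. That run does not cover a change in so many genes. Alternatives were a replicate block, leaving out each library, TMM and quantile scaling, other filters and pseudocounts, limma without robust estimation, and edgeR 4.0.16 and DESeq2 1.42.0 on the recovered reads. Intervals and floors from read numbers take in the error of counting alone. Positions and exon lengths are from GENCODE M21 (GRCm38, also called mm10), and promoter windows from RefSeq (GRCm38.p6). Values per library were given for the metallothioneins, Mtf1, Slc39a4, Slc30a1, Slc31a1, Atp7a, Atp7b and called members with an absolute log2 change of at least 0.8, and other genes were named up to 4 per list by smallest p, of which 1 is not reported here. The members, lists and rules were chosen with earlier results of these data known.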

Additional observations from a re-analysis of the deposited data

How the results depend on the processing

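No tested member changed direction with a call under any of the 16 alternatives. The count of members called was 11 higher and 12 lower, and ranged over the left-out libraries from 8 to 11 higher and from 11 to 12 lower. Quantile normalization gave 10 higher and 10 lower. It moved the typical tested gene by -0.15 on the log2 scale but raised the changes of members with many reads, by 0.26 for Slc31a1 and 0.27 for Slc39a14, and with it 27 of 32 members kept their side of the threshold. TMM scaling, edgeR and DESeq2 kept 30, 32 and 31 of the 32, and the filters, pseudocounts and limma without robust estimation kept every member they tested. The filter at 50 left 29 members to test, without Mt3, Slc39a2 and Slc39a7. With no filter Mt4 was tested and passed (limma adjusted p = 0.00027). The replicate block gave 11 members higher and 12 lower and 5251 and 5151 of all genes. Deviations of same-numbered libraries from their group means correlated at 0.00032, 0.036 and -0.0063 for replicates 1, 2 and 3. The highest correlation of each of these Sirt7KO libraries with another number was 0.026, -0.015 and 0.015. With so few libraries, these values cannot settle whether a number marks a shared batch. Depth limits Mt3, Mt4, Slc39a2 and Slc39a7, whose groups held 0 to 109 reads each.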

Other observations

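Slc39a8 and Slc39a14 are close relatives that both carry zinc and manganese and were changed in opposite directions. The ratio of Slc39a8 to Slc39a14 normalised reads within a library was 0.106, 0.0727 and 0.0851 in Sirt7KO, against 0.0245, 0.0216 and 0.0209 in Apc min/+. The groups could not overlap in this ratio, since they did not overlap for either gene and the changes were opposite. This pair and the next gene were chosen after their values were seen. Slc11a2, the iron importer of the enterocyte that can also carry other divalent metals, averaged 6504 ± 800 in Sirt7KO and 3498 ± 187 in Apc min/+ (SD, n = 3 each; log2 fold change 0.89, limma adjusted p = 4.53e-07).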
